A study of Mus musculus with 8 samples.

Results

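The genes described here encode the extracellular matrix of mouse neurospheres and the surface proteins that hold cells to the matrix and to each other: 11 collagens, 8 laminins and nidogens, 9 glycoproteins, 5 proteoglycans and link protein, 7 integrins, 4 cadherins and 4 further surface adhesion proteins. Members were listed by name and found through the RefSeq accession that the array design gives each probe. All 48 listed genes were found, by 67 of the 55681 non-control probes, among 20660 genes with a symbol on the array. Of the 48, 35 had 1 probe. The other 13 had more than 1, and the probe with the highest mean signal over the arrays stood for the gene.

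The study measured expression on 8 single-colour arrays of 1 slide, in neurospheres, which are clusters grown in culture from neural stem cells. Per the labels the starting tissue was ganglionic eminence at E14.5, and cells were grown with EGF and bFGF to the quaternary passage, with 1 embryonic brain per sample. The groups were KO adherent (2 arrays, Cbx3 -/-, adherent culture), KO floating (3 arrays, Cbx3 -/-, floating culture) and WT floating (3 arrays, Cbx3 +/+, floating culture), with no WT adherent group. Cbx3 encodes HP1gamma, a heterochromatin protein. One protocol, on plates that cells do not attach to, is given for all samples, so the labels do not say how the adherent culture was made, how the Cbx3 allele was made, or whether samples share a brain or a litter. Where samples share a source, p-values measure only the spread between these arrays.

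The extracellular matrix is the network of secreted proteins and sugars around cells. Laminins, type IV collagens and nidogens form basement membranes, which line the surfaces that neural stem cells touch, and integrins are the receptors that bind them. Lecticans such as brevican, with tenascins and hyaluronan, form most of the loose matrix of the brain, and cadherins bind cells directly to each other. In the embryonic brain, radial glia, the stem cells of this tissue, hold on to laminin through integrins and to each other through N-cadherin.

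The Cbx3 signal went against the labels of 2 arrays. All values below are log2 of the spot signal minus the log2 of that array's 75th percentile, so 0 is the 75th percentile. Cbx3 had -2.03 and 5.91 on KO adherent 1 and 2, -1.86, -2.76 and -1.75 on KO floating 1, 2 and 3, and 5.83, -2.17 and 5.95 on WT floating 1, 2 and 3. The array labelled KO adherent 2 was thus as bright as WT floating 1 and 3, and the array labelled WT floating 2 was as dim as the other KO arrays. Results are therefore given as labelled and without these 2 arrays. Leaving them out rests on a measured signal and not on a label, and no array was moved to another group. Among the 6 arrays left, KO adherent 1 and KO floating 1, 2 and 3 were compared with WT floating 1 and 3 (4 arrays against 2), which adds an adherent array to the KO side, so that culture and genotype cannot be told apart for that array.

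The 75th percentile of the signal ranged from 616 to 865 across arrays, and 44.5% to 55.4% of the non-control spots were well above background. All 10 listed markers of neural stem cells and radial glia were above background on all 8 arrays. In units of each array's 75th percentile, their summed signal was 467 to 561 in KO adherent, 487 to 672 in KO floating and 474 to 623 in WT floating arrays. These sums rest mostly on the brightest markers, Fabp7 and Vim, which averaged 7.90 and 7.39 on the log2 scale over all arrays. Of 12 markers of mesenchymal, meningeal and pericyte cells, which also make much matrix, 4 were above background on all arrays, while Pdgfrb, Rgs5, Lum and Fap were on none. Of 8 endothelial markers 3 were above background on all arrays, with Cdh5, Cldn5 and Tie1 on none, and of 7 measured microglia and blood markers 2 were, with Aif1, Cx3cr1 and Ptprc on none.

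Of the 48 genes, 34 were well above background on all 8 arrays, 10 on 1 to 7 arrays and 4 on none, and no member probe was saturated. The genes on no array were Hapln1 (a link protein that fastens lecticans to hyaluronan), Thbs2 (a thrombospondin), Reln (reelin, a secreted guide of neuronal migration) and Postn (periostin, a mesenchymal matrix protein). Across the 8 arrays, the 34 genes spanned a median range of 1.24 on the log2 scale, against 0.854 for all 22278 probes above background on all arrays. A range over 2 was found in 6 of them (17.6%, against 8.25% of those probes), and a range under 1 in 8. Col18a1 had the widest, 6.02, a 65.1-fold span, and Col4a1 the narrowest, 0.57.

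Single arrays held the extremes of many members. KO floating 2 was the lowest array for 18 of the 34 (52.9%, against 24.4% of all probes), and KO adherent 2 the highest for 12 (35.3%, against 15.2%). WT floating 1 and WT floating 3 were each highest for 8 (23.5%, against 13.3% and 20.8% of probes). On the heat map the arrays KO adherent 2, WT floating 1 and WT floating 3 share high Col18a1, Tnc and Itga7 and low Cdh11, while WT floating 2 has low Col18a1 and Itga7 and high Cdh11 and Tnr.

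**Figure D1:**
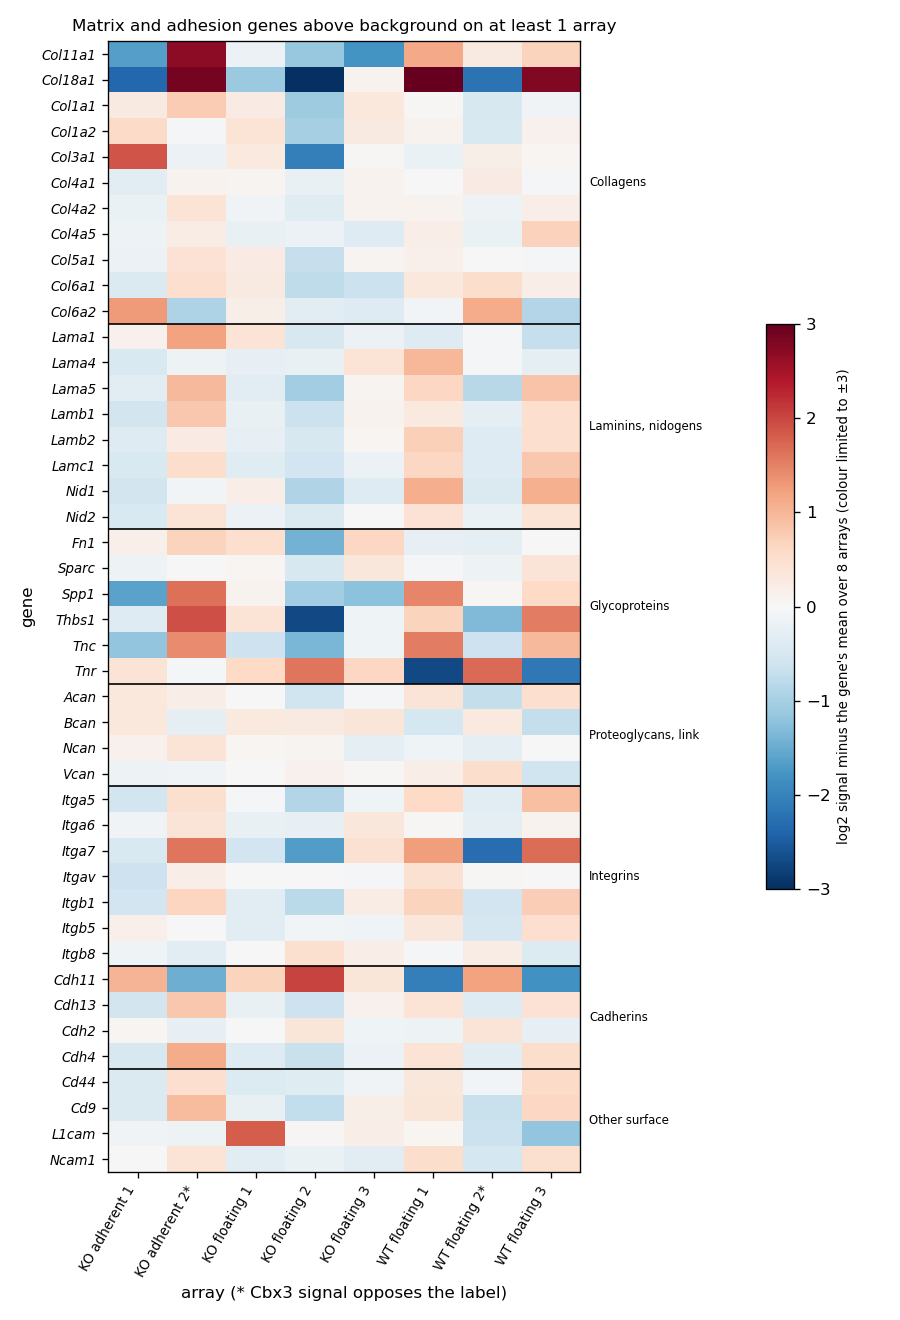
Heat map of the 44 genes above background on at least 1 array (rows, by class) on the 8 arrays (columns). Colour is the log2 signal minus the gene's own mean over the 8 arrays, limited to 3 either way, and asterisks mark the arrays whose Cbx3 signal opposes the label. Col18a1 and Cdh11 have strong colours that separate KO adherent 2, WT floating 1 and WT floating 3 from the rest, while Col4a1 and Ncan stay pale throughout.

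As labelled, no matrix or adhesion gene passed the test between KO floating and WT floating. With limma on 22647 features, 0 of the 39 members tested passed an adjusted p of 0.05, 0 had an unadjusted p under 0.05, and the smallest adjusted p was 0.813. Over all features 0.00442% passed, and 391 had an unadjusted p under 0.05. The median log2 difference (KO minus WT) of the 39 was -0.36, against -0.03 over all features, with 28 members lower and 11 higher. The groups' arrays did not overlap for 2 of the 39, Col11a1 and Cd44, against 8.4% of all features. Without the 2 arrays the same contrast (3 KO floating against 2 WT floating) again called 0 of 42 members, where 20 had an unadjusted p under 0.05 and the lowest adjusted p, 0.0650, was that of Tnr. In that fit 0.177% of 25962 features passed, and the median was -0.62 for members and -0.04 for all features.

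When, with the same WT arrays, the 4 KO arrays of both cultures were set against WT floating 1 and 3, 17 of 37 members tested passed (45.9%), against 17.3% of all 21463 features. Of these, 14 were lower in KO, against 8.35% of features called lower, and 3 were higher, against 8.99% called higher. The 14 were Col18a1, Col11a1, Col4a5, Nid1, Nid2, Lama5, Lamb2, Lamc1, Tnc, Itga5, Itgb1, Cdh4, Cd44 and Ncam1, and the 3 were Tnr, Bcan and Cdh11. The median log2 difference was -0.68 for the members and -0.07 for all features. The groups did not overlap for 25 members, 21 of them lower and 4 higher in KO, where 29.3% and 24% of all features were lower and higher without overlap. Tnr, Cdh11 and Col11a1 were not above background on every array of both groups, so these 3 of the 17 entered the fit only through the group where they were bright and had to differ in that direction. With only probes above background on all 6 arrays, 16 of 35 members passed, 2 higher and 14 lower, among 3370 of 18898 features. None of the 17 overlapped between the groups, so their sign within each of the 2 rows of the slide was fixed. The smallest size of a difference within a row was 0.40.

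KO floating alone against the same 2 WT arrays had passed 0.177% of all features, against 17.3% with KO adherent 1 added. For the fits below that leave out an array or add a block, the share of all features called is not given. Changes in the count there cannot be read as particular to the members. The count rested on few arrays. It came to 1 without KO adherent 1, 1 without WT floating 3, 2 without WT floating 1 and 6 without KO floating 1, against 18 and 20 without KO floating 2 and 3. The single member called without KO adherent 1 or without WT floating 3 was Tnr. With the replicate number as a block, 14 members passed, and 13 of the 17 were among them. The same counts were found with the slide row as a block, with different members lost.

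**Figure D2:**
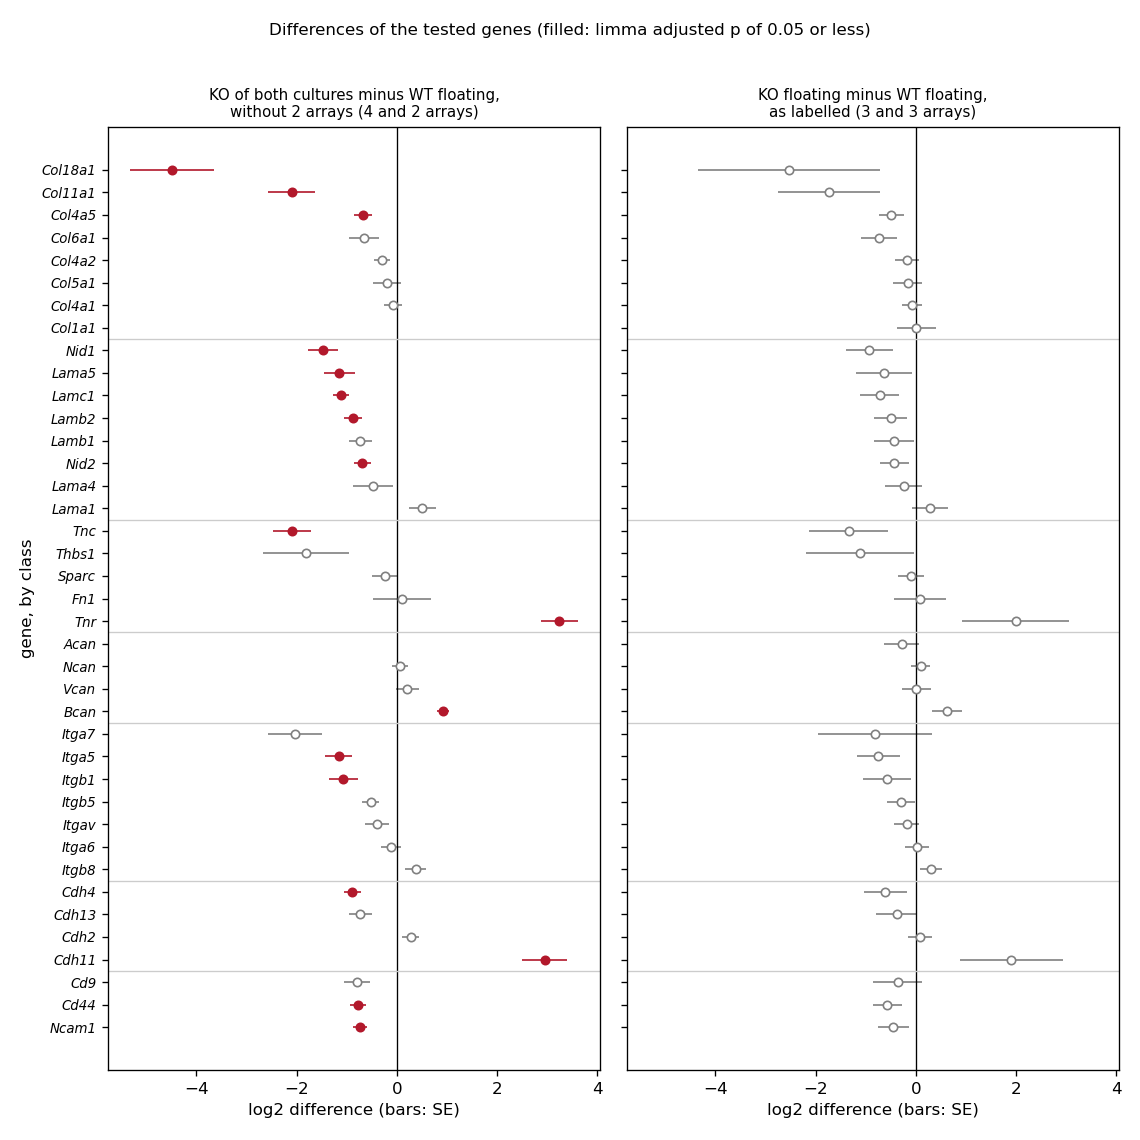
Log2 difference and its standard error for each gene tested, by class, in the 4 KO against 2 WT arrays left without the 2 conflicting ones (left) and in KO floating against WT floating as labelled, 3 arrays each (right). Filled points passed a limma adjusted p of 0.05. Filled points lie mostly left of 0 in the left panel, from -4.48 (Col18a1) to -0.68 (Col4a5), with Bcan, Cdh11 and Tnr on the right, and none is filled in the right panel.

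Among the collagens, Col18a1, Col11a1 and Col4a5 fell in KO without the 2 arrays, and the other 4 tested did not pass, where 8.35% of all features were called lower. Col18a1 encodes collagen XVIII, a basement membrane collagen that carries heparan sulfate and is the source of endostatin. Col18a1 had -1.02 and 4.20 on KO adherent 1 and 2, 0.22, -1.69 and 1.45 on KO floating 1, 2 and 3, and 4.34, -0.88 and 4.11 on WT floating 1, 2 and 3. KO adherent 2, WT floating 1 and WT floating 3 were close together and far above the other 5 arrays. As labelled, KO floating averaged -0.0044 ± 1.58 and WT floating 2.52 ± 2.95 (SD, n = 3 each), and the groups overlapped. Without the 2 arrays, KO averaged -0.26 ± 1.39 (SD, n = 4) and WT 4.23 ± 0.16 (SD, n = 2), a log2 difference of -4.48 ± 0.84 (SE), or 22.4-fold lower, with a limma adjusted p of 0.0247. Within the slide rows the difference was -5.07 and -3.90. A second probe for Col18a1 gave -4.06.

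Col11a1, a minor fibrillar collagen that limits fibril width, was dimmer. It had -4.13 and 0.21 on KO adherent 1 and 2, -2.65, -3.61 and -4.26 on KO floating 1, 2 and 3, and -1.32, -2.20 and -1.80 on WT floating 1, 2 and 3. All KO floating values lay below all WT floating values as labelled, where 8.4% of all features did not overlap in either direction. It was above background on 3 of the 4 KO arrays and on both WT arrays left, so its entry into the fit had fixed the direction. The log2 difference was -2.10 ± 0.47 (SE, adjusted p = 0.0352), against -1.73 ± 1.02 (SE) between the floating groups as labelled. Col4a5, a basement membrane chain, had 1.30 and 1.67 on KO adherent 1 and 2, 1.24, 1.28 and 1.07 on KO floating 1, 2 and 3, and 1.66, 1.26 and 2.15 on WT floating 1, 2 and 3. Its difference without the 2 arrays was small, -0.68 ± 0.18 (SE, adjusted p = 0.0468), and it was lost with the replicate number as a block (adjusted p = 0.0763).

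The main basement membrane chains Col4a1 and Col4a2, which pair in a single triple helix, did not pass. Col4a1 had 1.66 and 2.08 on KO adherent 1 and 2, 2.08, 1.77 and 2.10 on KO floating 1, 2 and 3, and 1.996, 2.23 and 1.96 on WT floating 1, 2 and 3. All arrays were within 0.57 of each other. The log2 difference without the 2 arrays was -0.08 ± 0.17 for Col4a1 and -0.30 ± 0.16 for Col4a2 (SE). Col5a1, which starts collagen fibrils, and Col6a1, a beaded-filament chain, had -0.20 ± 0.27 and -0.66 ± 0.30 (SE). The interstitial fibril genes were near background: Col1a1 was above it on 6 arrays, Col1a2 on 5 and Col3a1 on 3. Col6a2, a beaded-filament chain like Col6a1, was above it on 3. Over all arrays Col1a1 ranged from -4.42 to -2.60 and Col1a2 from -5.00 to -3.43, in each case lowest on KO floating 2. Col3a1 had its highest value, -1.91, on KO adherent 1, and from -5.85 to -3.51 on the others.

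Promoter windows of Col18a1, Tnc and Tnr, chosen after their values were seen as examples of lower and higher signal in KO, are printed to let the sequence upstream of these genes be read beside their values. They are the 250 bases before an annotated start in the RefSeq GRCm38.p6 table, on the gene's own strand. Capitals mark GGGCGG, the GC box bound by Sp-family factors, or its reverse complement CCGCCC.
Col18a1, chr10:77166531-77166780, minus strand: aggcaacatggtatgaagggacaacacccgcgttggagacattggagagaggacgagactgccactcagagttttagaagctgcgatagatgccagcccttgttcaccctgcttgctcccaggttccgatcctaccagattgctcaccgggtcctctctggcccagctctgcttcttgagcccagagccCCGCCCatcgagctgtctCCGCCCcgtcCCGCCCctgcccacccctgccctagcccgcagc
Col18a1, chr10:77113706-77113955, minus strand: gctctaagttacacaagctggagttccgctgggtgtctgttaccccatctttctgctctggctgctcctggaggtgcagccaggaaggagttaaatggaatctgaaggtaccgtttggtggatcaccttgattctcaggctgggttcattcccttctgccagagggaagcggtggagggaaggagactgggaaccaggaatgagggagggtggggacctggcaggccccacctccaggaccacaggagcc
Tnc, chr4:64047016-64047265, minus strand: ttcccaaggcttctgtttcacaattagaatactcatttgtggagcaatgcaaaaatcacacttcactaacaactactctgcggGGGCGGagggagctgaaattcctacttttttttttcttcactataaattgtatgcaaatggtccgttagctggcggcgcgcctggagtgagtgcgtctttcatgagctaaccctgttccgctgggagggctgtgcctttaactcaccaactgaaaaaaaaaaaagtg
Tnr, chr1:159523519-159523768, plus strand: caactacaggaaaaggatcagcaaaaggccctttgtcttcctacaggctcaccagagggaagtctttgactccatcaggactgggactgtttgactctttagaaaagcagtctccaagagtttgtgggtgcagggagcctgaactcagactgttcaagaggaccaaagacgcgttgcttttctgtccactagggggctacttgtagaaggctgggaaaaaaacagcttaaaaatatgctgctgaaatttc
Col18a1 has 3 GC boxes before 1 start and none before the other, Tnc has 1, and Tnr has none. A second Tnc window, not printed, overlaps the printed window and holds the same GC box. The files do not say which start the probed transcripts use. The RefSeq table matched 34 of the 48 members, with 40 windows. GGGCGG on either strand lay in 24 of the 40 (60%), against 32.7% of the 32851 windows in the table. Windows of a gene can overlap, and counted by gene it was 21 of 34 (61.8%), against 35.4% of 27025 genes. TGANTCA, the AP-1 motif, which is its own reverse complement and was searched apart from the GC box, lay in 1 of the 40 (2.5%), that of Col6a1, against 6.75%. Base composition was not matched between members and the other windows.

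The laminins and nidogens were the class with the most calls: 5 of 8 fell in KO without the 2 arrays, 0 rose and 3 did not pass, where 8.35% of all features were called lower. A laminin is a trimer of an alpha, a beta and a gamma chain. The gamma chain Lamc1, part of most laminins, had 3.53 and 4.52 on KO adherent 1 and 2, 3.61, 3.41 and 3.80 on KO floating 1, 2 and 3, and 4.61, 3.59 and 4.79 on WT floating 1, 2 and 3. KO adherent 2, WT floating 1 and WT floating 3 were the 3 highest arrays. Without the 2 arrays, KO averaged 3.59 ± 0.16 (SD, n = 4) and WT 4.70 ± 0.13 (SD, n = 2), so Lamc1 was 2.16-fold lower in KO (log2 difference -1.11 ± 0.16, SE, limma adjusted p = 0.0141). Between the floating groups as labelled it was -0.72, with an adjusted p of 0.813. In the slide rows the difference was -1.101 and -1.127.

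Lama5, an alpha chain of laminins that support stem cells in culture, had 4.67 and 5.99 on KO adherent 1 and 2, 4.69, 3.98 and 5.10 on KO floating 1, 2 and 3, and 5.63, 4.18 and 5.88 on WT floating 1, 2 and 3. The same 3 arrays were again the highest. Its difference of -1.15 ± 0.31 (SE) only just passed, with an adjusted p of 0.0499. Lamb2 had 1.32 and 1.97 on KO adherent 1 and 2, 1.47, 1.24 and 1.77 on KO floating 1, 2 and 3, and 2.42, 1.33 and 2.23 on WT floating 1, 2 and 3. Its KO arrays lay below both WT arrays left, by -0.87 ± 0.19 on average (SE, adjusted p = 0.0326). The other beta chain, Lamb1, had a difference of -0.73 ± 0.24 (SE) and did not pass (adjusted p = 0.0792).

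The nidogens link laminin to type IV collagen. Nid1 had 0.94 and 1.40 on KO adherent 1 and 2, 1.69, 0.59 and 1.09 on KO floating 1, 2 and 3, and 2.56, 1.04 and 2.55 on WT floating 1, 2 and 3. WT floating 1 and 3 were almost equal and above every other array, KO adherent 2 included. The log2 difference was -1.48 ± 0.30 (SE, adjusted p = 0.0287), 2.79-fold lower in KO. Nid2 had 0.85 and 1.70 on KO adherent 1 and 2, 1.13, 0.85 and 1.28 on KO floating 1, 2 and 3, and 1.73, 1.105 and 1.71 on WT floating 1, 2 and 3. Here KO adherent 2 was level with WT floating 1 and 3, and the difference was -0.69 ± 0.17 (SE, adjusted p = 0.0429). The calls for Lamb2 and Nid2 were lost with the replicate number as a block (adjusted p = 0.0519 and 0.0629).

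Lama1 and Lama4 did not follow the other chains. Lama1, the early embryonic alpha chain, had a difference of 0.51 ± 0.27 without the 2 arrays (SE, adjusted p = 0.209), with its highest value, -0.17, on KO adherent 2. Lama4, the alpha chain of vessel and Schwann cell laminins, spread most within WT floating, where it had 1.91, 0.88 and 0.63 on arrays 1, 2 and 3. Its difference had opposite signs in the slide rows, -1.23 and 0.28.

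Among fibronectin, the tenascins and the other secreted glycoproteins, Tnc fell and Tnr rose in KO without the 2 arrays, while Fn1, Sparc and Thbs1 did not pass. Of all features, 8.35% were called lower and 8.99% higher there. Tnc encodes tenascin-C, a matrix protein of neural stem cell niches and radial glia. Tnc had -1.37 and 1.24 on KO adherent 1 and 2, -0.81, -1.56 and -0.31 on KO floating 1, 2 and 3, and 1.35, -0.81 and 0.80 on WT floating 1, 2 and 3. The 3 arrays above 0 were KO adherent 2, WT floating 1 and WT floating 3. KO averaged -1.02 ± 0.57 (SD, n = 4) and WT 1.07 ± 0.39 (SD, n = 2) without the 2 arrays, a log2 difference of -2.09 ± 0.38 (SE), or 4.26-fold lower, with an adjusted p of 0.0238. As labelled, the floating groups overlapped, with a difference of -1.34 (adjusted p = 0.813). The second Tnc probe gave -1.92 without the 2 arrays.

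Tnr encodes tenascin-R, found in myelin-forming lineages and around neurons. Tnr had -3.02 and -3.49 on KO adherent 1 and 2, -2.85, -1.83 and -2.82 on KO floating 1, 2 and 3, and -6.15, -1.74 and -5.58 on WT floating 1, 2 and 3. It was well above background on all arrays but WT floating 1 and 3, so it was tested only through the KO arrays and had to differ in that direction. KO adherent 2, whose Cbx3 signal was bright, lay near the other KO arrays for this gene. The 4 KO arrays were at least 2.26-fold higher than the 2 WT arrays, as a bound from the dimmest signals well above background, with a limma adjusted p of 0.00946. Between the floating groups as labelled the difference was 1.99 ± 1.07 (SE, adjusted p = 0.813).

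Sparc, a secreted collagen-binding protein of radial glia and astrocytes, had 8.71 and 8.89 on KO adherent 1 and 2, 8.93, 8.39 and 9.19 on KO floating 1, 2 and 3, and 8.84, 8.70 and 9.26 on WT floating 1, 2 and 3. The groups overlapped, and the difference without the 2 arrays was -0.24 ± 0.25 (SE). Fn1, fibronectin, was low on 1 array: it had 2.70 on KO floating 2 and 3.84 to 4.80 on the other 7. Its difference without the 2 arrays was 0.10 ± 0.58 (SE). Thbs1, a thrombospondin that binds many matrix proteins, ranged from -3.69 on KO floating 2 to 0.93 on KO adherent 2 and had a difference of -1.81 ± 0.85 (SE, adjusted p = 0.171). Spp1, osteopontin, was above background on 2 arrays, KO adherent 2 (-3.20) and WT floating 1 (-3.37), and was not tested.

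**Figure D3:**
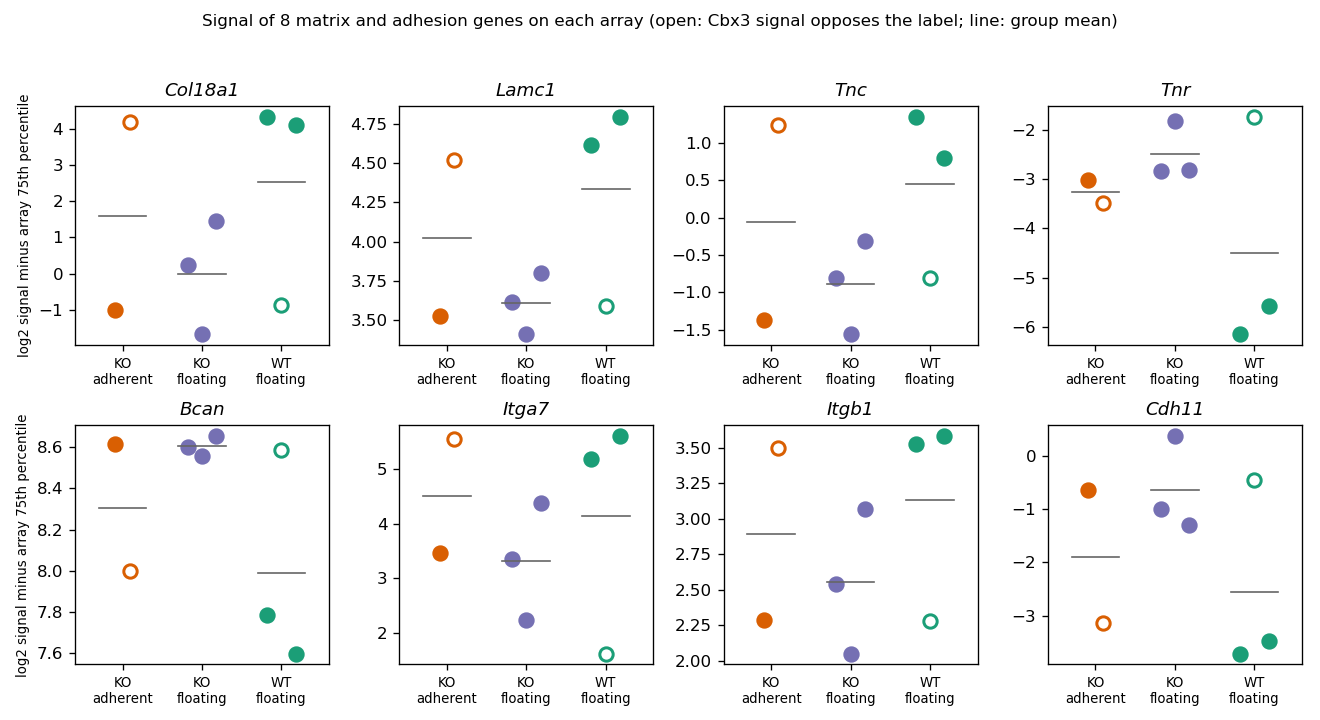
Log2 signal relative to the array's 75th percentile for 8 genes on each array, grouped as labelled, with a line at each group's mean over all its arrays. Open circles are the arrays whose Cbx3 signal opposes the label. For Col18a1, Lamc1, Tnc, Itga7 and Itgb1 the open KO adherent circle lies near the filled WT floating points, and the open WT floating circle lies near the KO points.

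Of the brain proteoglycans, Bcan rose in KO without the 2 arrays and Vcan and Ncan did not pass. In that comparison 8.99% of all features were called higher. Bcan encodes brevican, a lectican made by glial progenitors and astrocytes. Bcan had 8.62 and 7.997 on KO adherent 1 and 2, 8.60, 8.56 and 8.66 on KO floating 1, 2 and 3, and 7.78, 8.59 and 7.60 on WT floating 1, 2 and 3. The 4 KO arrays and WT floating 2 lay close together, and KO adherent 2, WT floating 1 and WT floating 3 were lower. KO averaged 8.61 ± 0.04 (SD, n = 4) and WT 7.69 ± 0.13 (SD, n = 2) without the 2 arrays, so Bcan was 1.89-fold higher in KO (log2 difference 0.92 ± 0.13, SE, limma adjusted p = 0.0137). In the slide rows it was 0.80 and 1.04, and a second probe gave 0.86. Between the floating groups as labelled the difference was 0.62 and the groups overlapped.

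Versican (Vcan), a lectican of the embryonic brain, had 2.30 to 3.44 over the 8 arrays, with both extremes in WT floating, and neurocan (Ncan), its brain-specific relative, 4.11 to 4.79. Their differences without the 2 arrays were 0.21 ± 0.23 and 0.07 ± 0.16 (SE). Aggrecan (Acan), known from cartilage and perineuronal nets, was above background on 4 arrays with values from -4.76 to -3.54. It was tested in the fit of the labelled groups, where KO floating minus WT floating was -0.28 ± 0.35 (SE).

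Of the integrins, Itga5 and Itgb1 fell in KO without the 2 arrays and 5 of 7 did not pass, where 8.35% of all features were called lower. Itgb1 encodes the beta chain shared by most matrix-binding integrins. Itgb1 had 2.29 and 3.49 on KO adherent 1 and 2, 2.54, 2.05 and 3.07 on KO floating 1, 2 and 3, and 3.53, 2.28 and 3.58 on WT floating 1, 2 and 3. KO adherent 2, WT floating 1 and WT floating 3 were close together, above all other arrays. KO averaged 2.49 ± 0.44 (SD, n = 4) and WT 3.55 ± 0.04 (SD, n = 2), a log2 difference of -1.07 ± 0.28 (SE), or 2.09-fold lower, with an adjusted p of 0.0495. The call was lost with the replicate number as a block (adjusted p = 0.0517). The second Itgb1 probe gave -0.85.

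Itga5 encodes the alpha chain of the fibronectin receptor. It had -1.82 and -0.79 on KO adherent 1 and 2, -1.32, -2.15 and -1.40 on KO floating 1, 2 and 3, and -0.67, -1.61 and -0.35 on WT floating 1, 2 and 3. Only KO adherent 2, WT floating 1 and WT floating 3 were above -1. The log2 difference was -1.16 ± 0.27 (SE, adjusted p = 0.0371), 2.24-fold lower in KO, and the call was lost with the slide row as a block (adjusted p = 0.0524). Itga7, a laminin-binding chain, had the largest difference of the class and missed the threshold by the least, so it is given in full, chosen after its values were seen. Itga7 had 3.47 and 5.53 on KO adherent 1 and 2, 3.35, 2.25 and 4.37 on KO floating 1, 2 and 3, and 5.18, 1.63 and 5.59 on WT floating 1, 2 and 3. The KO arrays spread over more than 2 on the log2 scale, and the difference was -2.03 ± 0.54 (SE) with an adjusted p of 0.0500045.

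Itga6, the laminin receptor chain used to sort neural stem cells, had 5.33 and 5.80 on KO adherent 1 and 2, 5.21, 5.18 and 5.76 on KO floating 1, 2 and 3, and 5.46, 5.12 and 5.52 on WT floating 1, 2 and 3. These values overlapped between all groups, and the difference without the 2 arrays was -0.12 ± 0.20 (SE). The vitronectin-type chains Itgav and Itgb5 had -0.39 ± 0.24 and -0.52 ± 0.17 (SE), and Itgb8, which binds latent TGF-beta, had 0.37 ± 0.21 (SE). None of these 3 passed.

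The 4 cadherins did not move as a class: Cdh11 rose, Cdh4 fell, and Cdh2 and Cdh13 did not pass, where 8.99% of all features were called higher and 8.35% lower. Cdh11 is a cadherin of mesenchymal and some neural cells. Cdh11 had -0.64 and -3.14 on KO adherent 1 and 2, -0.998, 0.37 and -1.30 on KO floating 1, 2 and 3, and -3.71, -0.46 and -3.47 on WT floating 1, 2 and 3. The 3 lowest arrays were KO adherent 2, WT floating 1 and WT floating 3. It was above background on the 4 KO arrays and on 1 of the 2 WT arrays left, so its entry into the fit had fixed the direction. KO averaged -0.64 ± 0.73 (SD, n = 4) and WT -3.59 ± 0.17 (SD, n = 2), a log2 difference of 2.95 ± 0.45 (SE, limma adjusted p = 0.0167). A second Cdh11 probe, above background on all 8 arrays, gave 0.92, so the size of the rise depended on the probe. As labelled, the floating groups differed by 1.90 ± 1.03 (SE) and overlapped.

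Cdh4, R-cadherin of retina and brain, had 2.87 and 4.47 on KO adherent 1 and 2, 2.96, 2.69 and 3.18 on KO floating 1, 2 and 3, and 3.76, 3.03 and 3.87 on WT floating 1, 2 and 3. KO adherent 2 was the highest array, above both WT arrays left. The log2 difference was -0.89 ± 0.17 (SE, adjusted p = 0.0256), 1.86-fold lower in KO, and the other probes gave -0.86 and -1.38. Cdh2, N-cadherin of the junctions between radial glia, had 5.51 and 5.22 on KO adherent 1 and 2, 5.45, 5.82 and 5.32 on KO floating 1, 2 and 3, and 5.30, 5.84 and 5.20 on WT floating 1, 2 and 3. All 8 arrays lay within 0.64, and the difference was 0.28 ± 0.17 (SE). Cdh13, T-cadherin, which is held in the membrane by a lipid anchor, had -0.73 ± 0.24 (SE, adjusted p = 0.0773).

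Among the other surface proteins, Cd44 and Ncam1 fell, Cd9 did not pass and L1cam was not tested. Cd44, the hyaluronan receptor, had 0.93 and 1.88 on KO adherent 1 and 2, 0.95, 1.02 and 1.28 on KO floating 1, 2 and 3, and 1.71, 1.30 and 1.94 on WT floating 1, 2 and 3. All KO floating arrays lay below all WT floating arrays as labelled, with a difference of -0.57 and an adjusted p of 0.813. Of all features, 8.4% did not overlap there, in either direction. Without the 2 arrays it was -0.78 ± 0.16 (SE, adjusted p = 0.0298). Of the other Cd44 probes, the one above background on all 8 arrays gave -1.71. The remaining 2 probes gave -1.30 and 0.46 and were above background on 0 and 1 array.

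Ncam1, the neural cell adhesion molecule, had 4.59 and 5.01 on KO adherent 1 and 2, 4.26, 4.41 and 4.28 on KO floating 1, 2 and 3, and 5.14, 4.07 and 5.09 on WT floating 1, 2 and 3. KO adherent 2, WT floating 1 and WT floating 3 were highest, and the difference was -0.73 ± 0.15 (SE, adjusted p = 0.0283). Its probes disagreed in size, with -0.50 and -0.07 from the other 2, and the call was lost when probes were averaged (adjusted p = 0.0596). Cd9, a tetraspanin found on neural stem cells, had 4.42 and 5.80 on KO adherent 1 and 2, 4.63, 4.11 and 5.04 on KO floating 1, 2 and 3, and 5.22, 4.18 and 5.47 on WT floating 1, 2 and 3. Its groups did not overlap without the 2 arrays, but the difference of -0.79 ± 0.27 (SE) did not pass (adjusted p = 0.0830). L1cam, an axonal adhesion molecule, was above background on KO floating 1 alone (-2.44).

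Markers of other cell types were read beside these classes. The summed signal of the mesenchymal, meningeal and pericyte markers was 7.76 to 10.5 in KO adherent, 6.27 to 8.51 in KO floating and 7.37 to 15.4 in WT floating, and overlapped as labelled. In the 4 KO against 2 WT arrays the sums did not overlap, with 7.76 on KO adherent 1 and 7.14, 6.27 and 8.51 on KO floating 1, 2 and 3, against 10.8 and 15.4 on WT floating 1 and 3, while KO adherent 2, left out there, had 10.5. Of the 5 markers tested 4 were lower, with a median log2 difference of -0.95, the sign that most matrix members had. None of the 5 passed, and Acta2, smooth muscle actin, had -2.58 ± 0.70 (SE, adjusted p = 0.0512). The endothelial sum was 12.9 to 19.9 in KO adherent, 12.2 to 13.8 in KO floating and 12.7 to 16.7 in WT floating, and the microglia and blood sum 13.5 to 27.3, 16.1 to 22.8 and 14.1 to 15.1 in the same groups. Without the 2 arrays the microglia and blood sums did not overlap either, in the opposite direction. They were 27.3 on KO adherent 1 and 22.8, 16.1 and 20.9 on KO floating 1, 2 and 3. WT floating 1 and 3 had 14.8 and 14.1, and KO adherent 2 had 13.5. Most of each of these sums was the signal of Itgam alone. Itgam averaged 4.28 in KO and 3.61 in WT on the log2 scale, while Csf1r went the other way, with 0.76 and 1.03. Of the 3 microglia and blood markers tested, 2 were higher and 1 lower in KO, and 0 passed. Without the 2 arrays the endothelial and neural stem cell sums overlapped. Of all single features, 29.3% were lower and 24% higher without overlap. Of the 10 neural stem cell markers, 2 passed as higher in KO (Slc1a3 and Pax6) and 2 as lower (Nes and Vim). In the same 4 KO against 2 WT arrays, 8.99% of all features were called higher and 8.35% lower. The part of any of these cells in the matrix results was not tested. In such bulk RNA, fewer cells of a type and less RNA per cell cannot be told apart.

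Culture was compared within the KO samples. With KO adherent minus KO floating as labelled, limma called 0 of 39 members and 0% of the 22647 features, with 0 members and 253 features at an unadjusted p under 0.05. The members' median was 0.32, against 0.06 for all features, with 29 higher and 10 lower. This comparison holds KO adherent 2. Without it, KO adherent was a single array whose spread was borrowed from the other groups, and again 0 of 42 members and 0% of 25962 features were called, with 1 member and 1000 features at an unadjusted p under 0.05, and the members' median was -0.07, against 0.05. Col18a1 illustrates the dependence, with -1.02 on KO adherent 1 and 4.20 on KO adherent 2. Between KO adherent and WT floating, a contrast of genotype and culture at once, limma called 0 of 39 members, with 1 at an unadjusted p under 0.05, against 0.00442% of all features called and 406 at that level. The median there was -0.04 for members and 0.03 for all features.

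A wider list of 139 other matrix and adhesion genes was read beside the members, of which 136 were on the array. None passed in the labelled comparisons or in KO floating against WT floating without the 2 arrays. In the 4 KO against 2 WT arrays, 29 of 90 tested passed, 12 higher and 17 lower in KO, where 8.99% of all features were called higher and 8.35% lower. Of the 29, 6 (Col27a1, Gpc5, Hapln4, Itga2, Itgb2 and Mgp) entered the fit only through the group where they were bright and had to differ in that direction. The counts by list are small, and they are given as counts alone. Of 12 genes of collagen processing, 2 fell and 0 rose: Crtap, a partner in proline hydroxylation, at -1.19 ± 0.21 and Plod3, a lysyl hydroxylase, at -0.94 ± 0.20 (SE). Of the 9 other collagens tested, Col4a6, the basement membrane partner of Col4a5, fell by 1.97 ± 0.27 (SE), while Col7a1, the anchoring fibril collagen, rose by 1.07 ± 0.27 (SE). Col27a1, a fibrillar collagen, was at least 2.36-fold higher in KO, since it was not above background on either WT array left. Of 8 other basement membrane genes, agrin (Agrn), a heparan sulfate proteoglycan, was the single call, higher by 0.85 ± 0.16 (SE).

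The other proteoglycans split, with 5 of 17 higher and 3 lower. Sdc3, the neural syndecan, averaged 4.82 ± 0.23 in KO (SD, n = 4) and 2.81 ± 0.03 in WT (SD, n = 2), and Cspg5, neuroglycan C, 6.86 ± 0.24 in KO and 5.495 ± 0.33 in WT. Sdc1, the epithelial syndecan, went the other way, with 0.06 ± 0.65 in KO and 1.90 ± 0.09 in WT. Hapln4, a brain link protein, was above background on both WT arrays and on none of the KO arrays, at least 3.07-fold lower in KO, a direction its entry into the fit had fixed. The other glycoproteins split too, with 2 of 14 higher and 5 lower. Smoc1 and Matn2, a calcium-binding matrix protein and a matrilin, rose by 1.71 ± 0.19 and 1.45 ± 0.21 (SE). Ecm1 fell by 3.02 ± 0.47 (SE). Mgp, matrix Gla protein, was above background on 1 of 4 KO arrays and on both WT arrays. It fell by 3.26 ± 0.67 (SE), a direction its entry into the fit had fixed.

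Of 8 other integrins tested, 3 fell and 0 rose. The collagen-binding chains were among them, with Itga1 at -1.47 ± 0.38 (SE) and Itga2 at least 3.52-fold lower in KO, above background on both WT arrays and on none of the KO arrays. For Itga2 and Itgb2, also among these calls, entry into the fit had fixed the direction. Of 7 other classical cadherins, Cdh19, known from Schwann cell precursors, fell by 1.42 ± 0.27 (SE). Of 15 other surface adhesion genes, 2 rose and 2 fell: Cadm2, a synaptic adhesion molecule, and Cntn1, a contactin, were higher by 1.51 ± 0.26 and 0.83 ± 0.20, and Nrcam and Cntn3, of the L1 and contactin families, had -1.18 ± 0.30 and -0.94 ± 0.24 (SE).

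**Figure D4:**
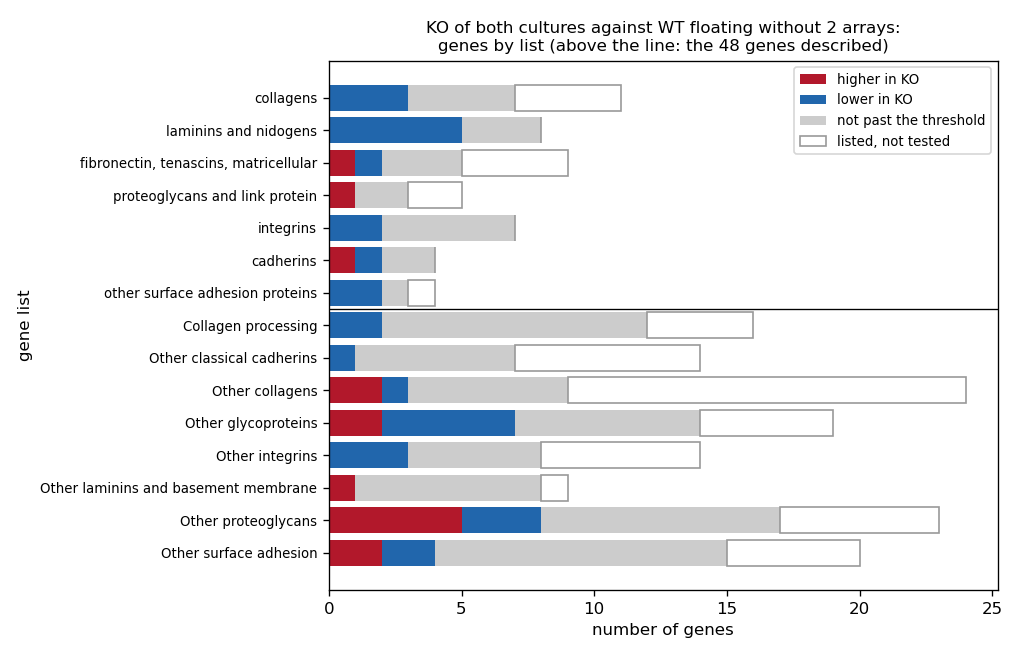
Number of genes in each list that were higher (red) or lower (blue) in KO, did not pass (grey) or were listed but not tested (white), in the 4 KO against 2 WT arrays left without the 2 conflicting ones, at a limma adjusted p of 0.05. Above the line are the classes of the 48 genes, where laminins and nidogens hold 5 lower calls of 8, and below it the other matrix and adhesion lists, where the other proteoglycans hold 5 higher and 3 lower calls.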

How the data were processed

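Single-colour Agilent arrays of 8 neurosphere samples were used. The deposited scanner files hold spot intensity, processed by Feature Extraction 11.0.1.1 per the file headers, while 9.1.3.1 is the version in the submitters' processing notes. The deposited table of intensity values tracked that processed signal (99.2% of probes within 0.01% on every array) and had column medians of 36.4 to 51.0, so it is linear and not normalized between arrays. The depth of an array is set by its probes and not by counts, and the number of arrays limits the precision.

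From the processed signal, log2 values were computed and centred on the 75th percentile of an array's non-control spots. Outlier spots were left out, so 200 probes lacked a value on at least 1 array and were not tested in fits holding it. Repeated spots were averaged. Probes entered a fit if all arrays of some group had them well above background, and each gene was read from its probe of highest mean. The design's accessions matched a symbol of the RefSeq GRCm38.p6 table for 27235 of 55681 probes. Tests used limma 3.58.1 in R 4.3.3 (lmFit, eBayes, two-sided) with Benjamini-Hochberg adjustment over all features, at 0.05. They were tested on simulated data. The labelled groups were fitted on all 8 arrays and then on 6, and the 4 KO against 2 WT arrays in a fit of their own. A bound on a fold sets the brighter group's mean against, per array of the dimmer group, the higher of the lowest signal well above background and the probe's own.

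Deviations from the group mean were correlated between same-numbered KO floating and WT floating arrays (r across features of 0.103, 0.590 and 0.335 for numbers 1, 2 and 3), and between some of different number too (up to 0.346). All 4 same-numbered pairs with a KO adherent array were negative (-0.630 to -0.0544), where the deviations of the 2 adherent arrays mirror each other. By a limit of 0.1 the floating arrays counted as paired. The main fits held no pairing, and the replicate number as a block was run only as an alternative setting. The pairing does not extend to the adherent arrays, although the block also ties KO adherent 1 to number 1. Number 1, at 0.103, lay below floating pairs of different number (0.346 and 0.205), while the other such pairs were negative. The 0.590 of number 2 holds WT floating 2, whose Cbx3 signal opposes its label. These values therefore do not establish a pairing. Fits with the replicate block are quoted where they alter a call. Background correction by normexp (offset 50) used the median spot signal, the files having no mean.

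All members are named, with the value on every array for those past the threshold in any comparison and for the one of highest mean in each class. From the other lists, up to 2 passing genes in each direction are named. The members, lists and tests were chosen with earlier results of these data known.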

Additional observations from a re-analysis of the deposited data

Results flagged for a closer look

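Among the 4 KO arrays of both cultures, the array KO adherent 1 stood far from the others for Itgav, the alpha chain of vitronectin-type integrins. Itgav had 1.16 on KO adherent 1 and 1.795, 1.76 and 1.71 on KO floating 1, 2 and 3, and the gap to the nearest array was 0.866 of the whole range, above Dixon's critical value for 4 samples. The 37 genes tested in this comparison were screened in this way, and chance flags about 1 in 20 such groups. Without the 2 conflicting arrays Itgav differed between KO and WT by -0.39 ± 0.24 on the log2 scale (SE) and did not pass.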

How the results depend on the processing

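For the 4 KO against 2 WT arrays the count of members past the threshold, 17, became 10 with a 2-fold minimum and 1 with no filter on dim probes, where 48960 features were tested. Leaving out each array in turn gave 1 to 20: 1 without KO adherent 1 or without WT floating 3, 2 without WT floating 1, 6 without KO floating 1, 18 without KO floating 2 and 20 without KO floating 3. It was 12 with quantile normalization, 14 with the replicate block or the slide row as a block, and 16 to 18 with normexp correction, the deposited table, averaged probes, an intensity trend with robust eBayes, or only probes above background on all arrays. For KO floating against WT floating without the 2 conflicting arrays, the count of 0 became 3 with the trend and robust eBayes (Tnr, Lamc1 and Ncam1), 1 (Tnr) with only the groups compared, and 0 to 1 over the repeats that left out an array. In the labelled comparisons (KO floating against WT floating, KO adherent against KO floating, KO adherent against WT floating) the count was 0 under every setting run, replicate block included, with 0 to 0 when each array was left out. Where a setting changed a call and the number of arrays or features did not change with it, the cause was not tested. Except with only probes above background on all arrays, the share of all features called under these settings is not given, leaving out an array included. Changes in the count under them cannot be read as particular to the members. No direction of a member past the threshold was turned by any of these settings. In the 4 KO against 2 WT arrays, leaving out an array could not turn it where the same probe was read. None of the 17 members overlapped between those groups. Genes near background (10 members on 1 to 7 arrays) have uncertain differences, and with 2 WT arrays left the spread of WT rests on 1 pair.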
